A study of Mus musculus with 9 samples.

Results

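The genes described here are 48 mouse genes of the WNT pathway: the 19 WNT ligands, the 10 frizzled receptors, the co-receptors *Lrp5* and *Lrp6*, 9 secreted antagonists, the 4 TCF/LEF transcription factors and 4 genes of β-catenin and its destruction complex. They were listed by name and role with earlier results of these data known, and they are 48 of the 21911 protein-coding genes examined. For each gene, the question was whether binding sites of CHD7, an ATP-dependent chromatin remodeller that slides nucleosomes, lay at its locus in cardiac precursor (CP) cells. Of the 48 genes, 21 had at least 1 CHD7 peak in their regulatory domain, that is 43.8% against 22.7% of all genes. The domains of WNT genes were long, and genes with domains of like length had a peak in 32.4% of cases.

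The cells were of WT genotype, derived from embryonic stem cells of C57BL6 mice and taken at day 5 of differentiation towards cardiomyocytes. In CUT&RUN, an antibody tethers a nuclease to the protein under study and the released DNA fragments are sequenced. Libraries were made in 3 groups of 3 biological replicates, with an antibody against CHD7, with IgG as the negative control and from input without antibody, 9 libraries in all. The authors deposited a list of 3761 peaks that joins the 3 anti-CHD7 replicates, with positions in mm10 (GRCm38). It gives no score, height or read count. The depth of the libraries and the spread between replicates are therefore unknown here, no value below has a replicate error, and no test was made. Libraries made with IgG or from input were not used here. No expression values were used, so the markers of CP cells were not examined, and the cells in the dish are an in vitro model of heart progenitors. The intervals given are Wilson 95% confidence intervals, which cover counting error only.

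WNT ligands are secreted lipid-modified proteins that bind frizzled receptors and, in the canonical branch, the co-receptors *Lrp5* and *Lrp6*. Binding stops the destruction complex, built on the scaffolds AXIN and APC, from marking β-catenin for degradation, and β-catenin then enters the nucleus and acts through TCF/LEF factors on target genes. Other ligands, such as WNT5A and WNT11, act mainly through routes that do not need β-catenin and that orient cells and their movements. In the embryo, canonical signalling is needed to form mesoderm and must then be restrained for cardiac cells to be specified, and it acts again in the expansion of second heart field progenitors.

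The stretches of DNA at which the CHD7 peaks of WNT genes met either a promoter or the recognition sequence of the pathway's own nuclear factors are shown first. They are the central 200 bp of the peaks that lay within 5 kb of the transcription start site (TSS) of a WNT gene or that held a TCF/LEF match, read from the GRCm38 genome on the plus strand. Capitals mark the TCF/LEF matches, which were searched as CTTTGAA or CTTTGAT on both strands. The window of 1 further peak, at *Fzd3*, lay over a UTR and was not printed. The first pair lies upstream of the TSSs of *Wnt5b* and *Wif1*, and neither holds a TCF/LEF match.
*Wnt5b* peak1349, chr6:119544587-119544786: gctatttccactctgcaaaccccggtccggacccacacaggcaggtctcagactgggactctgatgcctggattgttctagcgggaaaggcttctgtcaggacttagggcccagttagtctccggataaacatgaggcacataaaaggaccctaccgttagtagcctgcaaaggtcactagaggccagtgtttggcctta
*Wif1* peak2242, chr10:121033506-121033705: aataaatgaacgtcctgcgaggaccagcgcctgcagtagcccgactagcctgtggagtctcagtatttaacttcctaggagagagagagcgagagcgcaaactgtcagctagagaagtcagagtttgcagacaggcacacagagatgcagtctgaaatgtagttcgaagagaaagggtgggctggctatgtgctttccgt
The next window lies in an intron of *Tcf7*, and the following pair flanks *Axin2*, a gene known as a common target of canonical WNT signalling. Each *Axin2* window holds 2 matches.
*Tcf7* peak2330, chr11:52280728-52280927: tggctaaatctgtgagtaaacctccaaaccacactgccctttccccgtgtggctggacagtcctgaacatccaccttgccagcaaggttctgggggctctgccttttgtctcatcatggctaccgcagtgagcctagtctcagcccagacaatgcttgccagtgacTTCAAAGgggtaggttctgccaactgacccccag
*Axin2* peak2505, chr11:108897687-108897886: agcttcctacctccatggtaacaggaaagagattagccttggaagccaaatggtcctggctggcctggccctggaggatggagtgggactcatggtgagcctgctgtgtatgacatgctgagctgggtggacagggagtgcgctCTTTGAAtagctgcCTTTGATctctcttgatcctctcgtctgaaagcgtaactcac
*Axin2* peak2506, chr11:108961756-108961955: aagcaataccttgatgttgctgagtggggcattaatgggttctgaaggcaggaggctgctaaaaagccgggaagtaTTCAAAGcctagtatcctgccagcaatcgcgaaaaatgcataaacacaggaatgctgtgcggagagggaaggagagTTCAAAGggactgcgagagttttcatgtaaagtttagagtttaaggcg
The last 4 windows lie farther from the gene whose domain holds them and have 1 match each.
*Sfrp4* peak2753, chr13:19671255-19671454: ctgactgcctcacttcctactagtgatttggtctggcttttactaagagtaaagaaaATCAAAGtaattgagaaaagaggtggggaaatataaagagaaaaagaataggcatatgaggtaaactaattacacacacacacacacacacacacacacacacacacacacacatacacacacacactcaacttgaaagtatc
*Wnt2* peak1205, chr6:17870708-17870907: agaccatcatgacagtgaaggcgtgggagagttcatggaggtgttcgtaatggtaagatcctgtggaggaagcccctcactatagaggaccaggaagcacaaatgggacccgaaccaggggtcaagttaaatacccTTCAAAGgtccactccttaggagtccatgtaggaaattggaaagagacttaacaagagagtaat
*Lef1* peak698, chr3:130884815-130885014: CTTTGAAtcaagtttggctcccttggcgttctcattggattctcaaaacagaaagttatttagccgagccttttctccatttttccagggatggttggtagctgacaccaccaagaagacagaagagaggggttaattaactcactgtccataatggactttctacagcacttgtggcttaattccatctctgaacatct
*Dkk1* peak3679, chr19:30255660-30255859: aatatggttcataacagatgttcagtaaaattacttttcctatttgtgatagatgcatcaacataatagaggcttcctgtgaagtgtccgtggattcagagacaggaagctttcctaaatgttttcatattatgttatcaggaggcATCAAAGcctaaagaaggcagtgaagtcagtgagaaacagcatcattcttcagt

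CHD7 peaks were assigned to genes by regulatory domains. The domain of a gene spans 5 kb before its TSS and 1 kb after it and is extended in both directions to the next gene's basal domain, or by up to 1 Mb. A peak belongs to a gene if its midpoint falls in the domain, so that a peak can belong to more than 1 gene. With this rule the 21 WNT genes held 33 peaks, each in the domain of only 1 of the 48 genes. There was 1 peak at 14 of them, 2 peaks at *Wnt2*, *Sfrp2*, *Axin2* and *Apc*, 3 peaks at *Wnt5a* and *Wnt7b*, and 5 peaks at *Tcf7l2*. At least 2 peaks were thus found at 7 of the 48 genes (14.6%), against 5.88% of all genes. At least 3 were found at 3 WNT genes, against 1.75% of all genes, and 0.164% of all genes had 5 or more. The shares with several peaks were not set against genes of like domain length.

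**Figure D1:**
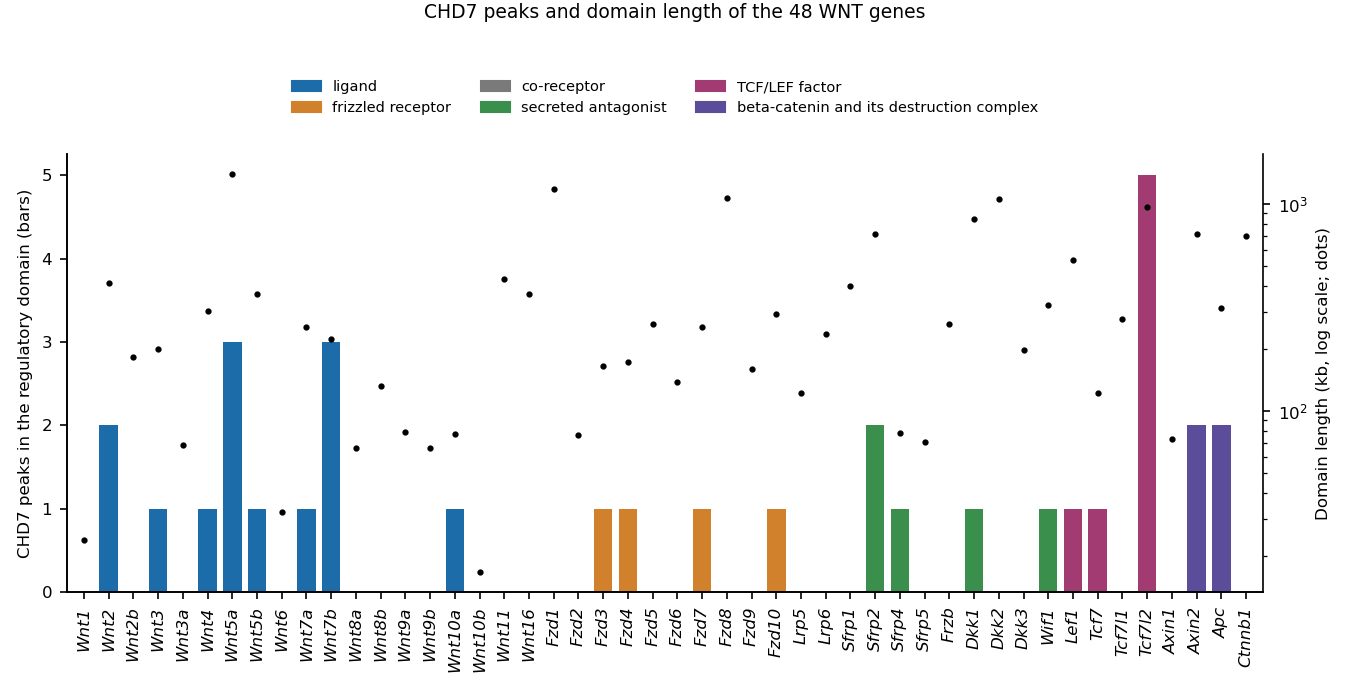
Number of CHD7 peaks in the regulatory domain (bars, left axis) and length of the domain in kb (dots, right axis, log scale) for each of the 48 WNT genes, coloured by role. Bars stand at 21 genes, *Tcf7l2* has 5 peaks, both co-receptors have none, and the domains run from 16646 bp at *Wnt10b* to 1389780 bp at *Wnt5a*.

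Long domains collect more peaks, and the domains of WNT genes were long. Their median length was 243764 bp, against 90182 bp over all genes. The 21 genes with a peak had a median domain of 303025 bp and the 27 without a peak one of 160032 bp. Of the 12 WNT genes with a domain under 100 kb, 2 (*Wnt10a* and *Sfrp4*) had a peak, against 1.70 given by genes of like domain length. To take the length into account, each WNT gene was given the share with a peak among the 500 other genes nearest to it in domain length. Summed over the 48 genes, these shares came to 15.5 genes with a peak. The observed 21 stood at 1.35 times that number (43.8%, interval 30.7 to 57.7, against 32.4%, which lies inside the interval). The ratio depended on the rule of assignment. When each peak was given only to the gene with the nearest TSS, 9 WNT genes kept a peak against 9.79 by length, a ratio of 0.9195, so the direction turned. Per Mb of domain, the WNT genes held 2.0 peaks and all genes 1.48.

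**Figure D2:**
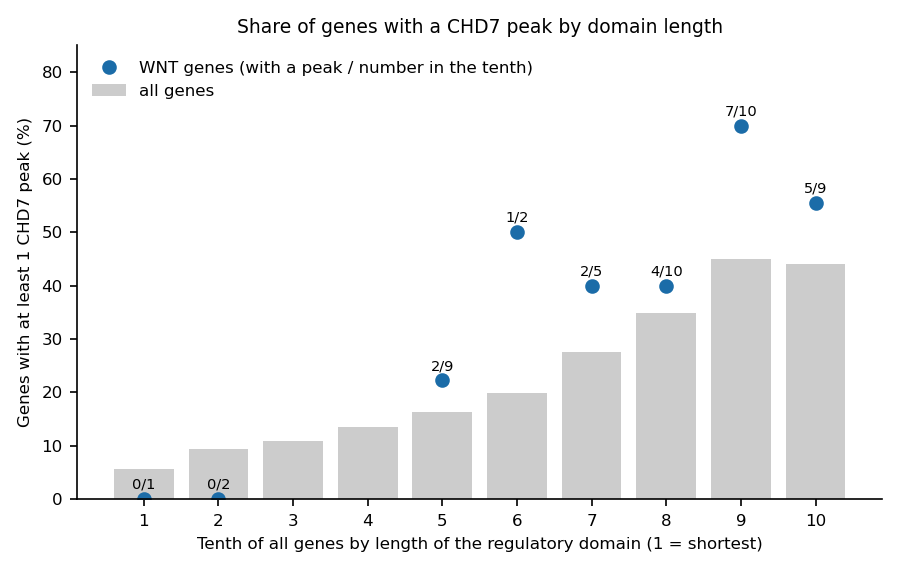
Share of genes with at least 1 CHD7 peak (%) in each of 10 equal classes of all genes by domain length, from shortest to longest, for all genes (grey bars) and WNT genes (blue points, with the number with a peak over the number in the class). WNT genes crowd in the longer classes: 7 of 10 in class 9 had a peak, where all genes had 45.1%, and 5 of 9 in class 10, where all genes had 44.1%.

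The peaks of WNT genes lay far from their TSSs. The median distance from midpoint to TSS was 111582 bp over the 33 pairs of gene and peak, against 57398 bp over all 6819 pairs of genes and peaks. The distance was over 10 kb in 29 of the 33 pairs (87.9%, interval 72.7 to 95.2), against 81.5% of all pairs. It was over 100 kb in 19 pairs (57.6%, interval 40.8 to 72.8), against 35.5% of all pairs. Peaks lay upstream of the TSS in 19 pairs (57.6%, same interval), against 44.0%. For distances over 10 kb and for upstream peaks, the share of all pairs lies inside the interval. For distances over 100 kb it lies below. A long domain also allows longer distances, and the part of domain length in these differences was not tested. Seen without domains, from the TSS alone, 22 of the 48 genes (45.8%) had a peak within 100 kb, against 36.8% of all genes, and 4 (8.33%) had one within 10 kb, against 6.32%.

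**Figure D3:**
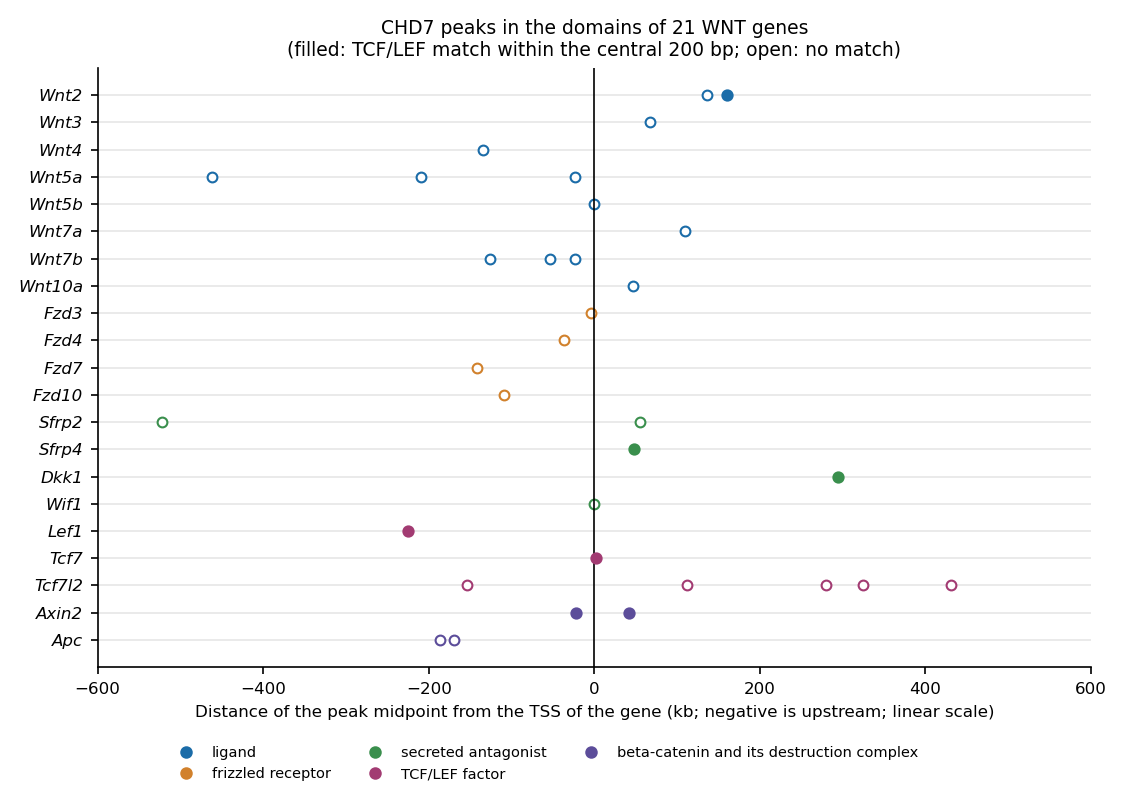
Position of each of the 33 CHD7 peaks relative to the TSS of the WNT gene whose domain holds it, in kb on a linear scale, with upstream to the left and colours for the role of the gene. Filled points (TCF/LEF match in the central 200 bp) mark 7 peaks at 6 genes, both peaks of *Axin2* among them, and only 4 of the 33 points lie within 5 kb of the TSS.

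The land around these peaks often belonged to another gene. Nearest TSSs were sought among all transcripts of protein-coding genes, noncoding loci left aside. By this measure another gene had the nearest TSS in 21 of the 33 pairs. The WNT gene itself had it in 12 pairs (36.4%), against 53.7% of all pairs of genes and peaks, and these 12 pairs belonged to 7 genes. Only the peaks at *Wnt5b* and *Wif1* were assigned to the WNT gene alone. By annotation, 17 peak midpoints were intergenic, 14 lay in introns and 2 in exons. Introns of the WNT gene itself held 2 of them, at *Tcf7* and *Tcf7l2*, whereas 11 midpoints lay inside another protein-coding gene and 3 inside a noncoding gene or a pseudogene. Sequence composition and width differed little from the list as a whole. The median width was 712 bp (range 466 to 2320) against 703 bp, the median GC content 47.0% against 47.5%, and the median density of CpG dinucleotides 1.26 per 100 bp against 1.16.

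Among the 19 ligands, 8 had a peak (*Wnt2*, *Wnt3*, *Wnt4*, *Wnt5a*, *Wnt5b*, *Wnt7a*, *Wnt7b* and *Wnt10a*), against 5.38 given by genes of like domain length, with 13 peaks in all. *Wnt5a* encodes the main ligand of the β-catenin-independent branch, which is needed in the outflow tract and the second heart field. It had the longest domain of the 48 genes and 3 peaks, all upstream. The nearest was intergenic, 23885 bp from the TSS (chr14:28480112-28481617), and at 1506 bp it was wider than 90.5% of the list. The other two lay in introns 17 and 13 of the neighbouring *Erc2*, a gene for a protein of the presynaptic active zone, 209398 and 461407 bp from the *Wnt5a* TSS (chr14:28295075-28295629 and chr14:28042642-28044043). The farther of them was only 3085 bp from an *Erc2* TSS, while the peak next to *Wnt5a* had the *Wnt5a* TSS as the nearest.

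*Wnt5b*, the paralogue of *Wnt5a*, had its single peak at the promoter, 340 bp upstream of the TSS (chr6:119544427-119544946). That peak was 520 bp wide and rich in CpG, with 5.19 CpG per 100 bp. It is the first of the windows printed above. No second peak lay in the 366482 bp of its domain, and the next peak was 7227 bp outside it.

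*Wnt7b*, a ligand known from lung and placenta, also had 3 peaks upstream, all intergenic. They lay 23117, 53026 and 126130 bp from the TSS (chr15:85604466-85604931, chr15:85633996-85635220 and chr15:85707419-85708005). The nearest TSS was that of *Wnt7b* for the first 2 peaks, and for the last it was that of *Ppara*, a nuclear receptor of fatty acid metabolism. The middle peak stood out in composition, with 5.31 CpG per 100 bp and 5 matches to GGGCGG, the SP/KLF motif, in its central 200 bp. Its paralogue *Wnt7a* had 1 peak, 109404 bp downstream of its TSS and nearer to *Fbln2*. Closer to the *Wnt7a* TSS, 76354 bp upstream, was a peak that lay 19015 bp outside the domain.

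*Wnt4*, which acts in the kidney and gonad and which the study followed in the venous pole of the heart, had 1 peak in a domain of 303025 bp. The peak was intergenic, 134246 bp upstream (chr4:137142249-137144236), and the nearest TSS was that of *Zbtb40* at 94442 bp. It was 1988 bp wide, wider than 97.0% of the list. It held 3 TCF/LEF matches, none of them in the central 200 bp.

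*Wnt2*, a ligand of the early heart and lung mesoderm, had 2 peaks downstream of its TSS, 136373 and 159777 bp away, in introns 10 and 9 of the neighbouring *St7* (chr6:17893718-17894705 and chr6:17870251-17871365). The farther of these peaks held a TCF/LEF match at chr6:17870844-17870850 in its central window. A peak nearer to the *Wnt2* TSS, 110735 bp upstream, lay 33264 bp beyond the edge of the domain and was not counted. *Wnt3*, which is needed for gastrulation, had 1 peak 66784 bp downstream in intron 17 of *Nsf*. The 1 peak of *Wnt10a* lay 47310 bp downstream, nearer to *Cdk5r2*.

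The other 11 ligands had no peak: *Wnt1*, *Wnt2b*, *Wnt3a*, *Wnt6*, *Wnt8a*, *Wnt8b*, *Wnt9a*, *Wnt9b*, *Wnt10b*, *Wnt11* and *Wnt16*. Several of them sit beside another ligand gene, whose basal domain bounds theirs on that side. The TSSs of *Wnt10b* and *Wnt1* are 11707 bp apart, with domains of 16646 and 23775 bp, and those of *Wnt3a* and *Wnt9a* are 16178 bp apart, with domains of 68768 and 78905 bp. None of these 4 genes had a peak. In the pairs *Wnt6* and *Wnt10a* (19624 bp apart) and *Wnt9b* and *Wnt3* (24329 bp apart), only the second gene, with the longer domain, had one. *Wnt11*, a β-catenin-independent ligand of the outflow tract, had no peak in a domain of 436038 bp. Of genes with a domain of like length, 49.0% had one. The nearest peak to *Wnt11* was 567007 bp away.

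Of the 10 frizzled receptors, *Fzd3*, *Fzd4*, *Fzd7* and *Fzd10* had 1 peak each, against 3.36 genes by domain length. The peak at *Fzd3*, a receptor best known from axon guidance and cell polarity, lay 4270 bp upstream of its TSS (chr14:65266063-65267402). Its midpoint was in exon 1 of the neighbouring *Fbxo16*, 1 bp from the TSS of that gene. It thus covers the start of *Fbxo16*, and it is counted at *Fzd3* because it falls in that domain. The other 3 lay 36285 bp (*Fzd4*, in intron 1 of *Tmem135*), 108667 bp (*Fzd10*) and 141312 bp (*Fzd7*, in intron 12 of *Cdk15*) upstream. *Fzd7*, a receptor used by embryonic stem cells, had a nearer peak 38102 bp downstream, which lay 9263 bp beyond the edge of its domain and was not counted.

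No peak was assigned to *Fzd1*, *Fzd2*, *Fzd5*, *Fzd6*, *Fzd8* or *Fzd9*. *Fzd1* and *Fzd8*, with domains of 1185830 and 1069646 bp, were among the 4 of the 48 genes whose domains exceeded 1 Mb. Of genes of like length, 40.6% had a peak, so that having none was the more common state. The nearest peak was 1674220 bp from the TSS of *Fzd1* and 622190 bp from that of *Fzd8*. The co-receptors *Lrp5* and *Lrp6*, with domains of 122651 and 234170 bp, had no peak either, against 0.568 genes by domain length. At *Lrp5* a peak lay 21600 bp upstream of the TSS but outside the domain. At *Lrp6* the nearest was 498940 bp away.

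Of the 9 secreted antagonists, *Sfrp2*, *Sfrp4*, *Dkk1* and *Wif1* had a peak, against 3.23 genes by domain length. Secreted frizzled-related proteins and WIF1 bind WNT ligands, and DKK1 blocks the co-receptors. The peak at *Wif1* was the second at a promoter, 354 bp upstream of the TSS (chr10:121033101-121034111), 1011 bp wide and with 5.14 CpG per 100 bp, a density like that at *Wnt5b*. The single peak of *Dkk1* lay 293905 bp downstream, 22818 bp from the TSS of *Mbl2*, a serum lectin of innate immunity (chr19:30254902-30256617). It was wide, at 1716 bp, and held a TCF/LEF match at chr19:30255806-30255812. *Sfrp4* had 1 peak, 48180 bp downstream in intron 11 of *Nme8* (chr13:19671080-19671629), with a match at chr13:19671312-19671318. The peaks of *Sfrp2* lay 55775 bp downstream, within an intron of *Gm7115*, a pseudogene, and 522192 bp upstream, in intron 2 of *Dchs2*, a large cadherin (chr3:83821785-83822406 and chr3:83243766-83244491). The latter is the greatest distance among the 33 pairs.

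*Sfrp1*, *Sfrp5*, *Frzb*, *Dkk2* and *Dkk3* had no peak. *Dkk2*, with a domain of 1059052 bp, was the third gene over 1 Mb without one, and the nearest peak to its TSS, 1200377 bp upstream, was that assigned to *Lef1*. *Wnt5a* was the only one of the 4 genes over 1 Mb to have a peak.

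Of the 4 TCF/LEF genes, whose products carry the response to β-catenin on DNA, *Lef1*, *Tcf7* and *Tcf7l2* had a peak and *Tcf7l1*, the member known mainly as a repressor, had none, against 1.51 genes by domain length. *Tcf7l2* had 5 peaks, more than any other of the 48 genes, in a domain of 961892 bp, and of all 21911 genes 36 had 5 or more. They lay 153405 bp upstream in intron 7 of the neighbouring *Vti1a* (chr19:55588446-55589281), 111582 bp downstream in intron 4 of *Tcf7l2* itself (chr19:55853530-55854171), and 279853, 324266 and 430725 bp downstream in the intergenic stretch towards *Habp2* (chr19:56021521-56022723, chr19:56066276-56066794 and chr19:56172740-56173247). The nearest TSS of any transcript was one of *Tcf7l2* for all but the last. For these it was not the *Tcf7l2* TSS used for the distances. The peak in intron 4 lay 39501 bp upstream of its nearest *Tcf7l2* TSS, and that in *Vti1a* 152956 bp upstream. The peaks at 279853 and 324266 bp lay 123569 and 167982 bp downstream of theirs. By the 1 TSS per gene used for the distances, the peaks at 279853 and 324266 bp were nearer to *Habp2*. None of the 5 held a TCF/LEF match anywhere in the peak, and 2 held the GATA motif in the central window.

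*Tcf7* had 1 peak in intron 2, 1743 bp downstream of its TSS (chr11:52280564-52281092), with a TCF/LEF match at chr11:52280894-52280900. It was the only peak of the 33 that lay both inside its own gene and within 5 kb of the TSS. *Lef1* had 1 peak, 225556 bp upstream and 154517 bp from the nearest protein-coding TSS, that of *Rpl34* (chr3:130883755-130886074). The midpoint fell in an exon of *Gm43350*, an annotated locus that codes for no known protein. At 2320 bp it was the widest peak of the 33, wider than 98.6% of the list, and it held 4 TCF/LEF matches, 1 of them in the central window at chr3:130884815-130884821.

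Of the 4 genes of β-catenin and its destruction complex, *Axin2* and *Apc* had 2 peaks each, and *Axin1* and *Ctnnb1*, the gene of β-catenin, had none, against 1.49 genes by domain length. The peaks of *Axin2* lay on either side of the gene's TSS, 22562 bp upstream (chr11:108897509-108898065) and 41507 bp downstream (chr11:108961593-108962118), in a domain of 717103 bp. Both were intergenic, and the nearest TSS was one of *Axin2*, 18235 bp away for the downstream peak. Both held 2 TCF/LEF matches in the central 200 bp. In the upstream peak they stood side by side on the plus strand, at chr11:108897831-108897837 (CTTTGAA) and chr11:108897845-108897851 (CTTTGAT). In the downstream peak they were at chr11:108961832-108961838 and chr11:108961908-108961914, each CTTTGAA on the minus strand. Of the 3761 peaks of the list, 26 (0.691%) held 2 or more matches in that window. *Apc* had its peaks 169397 and 186286 bp upstream, the first of them in an intron of a lincRNA gene and both nearer to *Epb41l4a* than to any other protein-coding gene (chr18:34050979-34052194 and chr18:34034424-34034971). *Ctnnb1* had no peak in a domain of 703753 bp, and the nearest lay 379423 bp from its TSS.

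Within 5 kb of the TSS, 4 of the 48 genes (*Wnt5b*, *Wif1*, *Tcf7* and *Fzd3*) had a peak, that is 8.33% against 4.03% of all genes. As 1 of these peaks lay on the start of *Fbxo16*, 3 were nearest to the WNT gene. The 27 genes without a peak had their nearest peak between 21260 bp (*Wnt1*) and 1674220 bp (*Fzd1*) from the TSS, with a median of 181276 bp. For some of them a peak lay just beyond the edge. A peak lay 4193 bp outside the domain of *Wnt1*, 4617 bp outside that of *Lrp5*, 4805 bp outside that of *Wnt8b*, 7334 bp outside that of *Fzd9* and 9250 bp outside that of *Axin1*.

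Sequence motifs were counted in the central 200 bp of the peaks, on both strands, beside the share of all 3761 peaks. No motif contains another, and a match is a run of letters, not a measured site. The TCF/LEF motif was found in 7 of the 33 peaks of WNT genes (21.2%, interval 10.7 to 37.8), against 8.56% of all peaks. These 7 peaks belonged to *Axin2*, *Tcf7*, *Lef1*, *Wnt2*, *Dkk1* and *Sfrp4*. In windows of the same length moved 2 kb to either side, 2 of 33 (6.06%) held it on each side, against 7.05% and 7.68% around all peaks. Over whole peaks, 14 of 33 (42.4%, interval 27.2 to 59.2) held at least 1 match at 12 genes, against 29.9% of all peaks, a share that lies inside the interval, and the density was 0.898 matches per kb against 0.465.

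**Figure D4:**
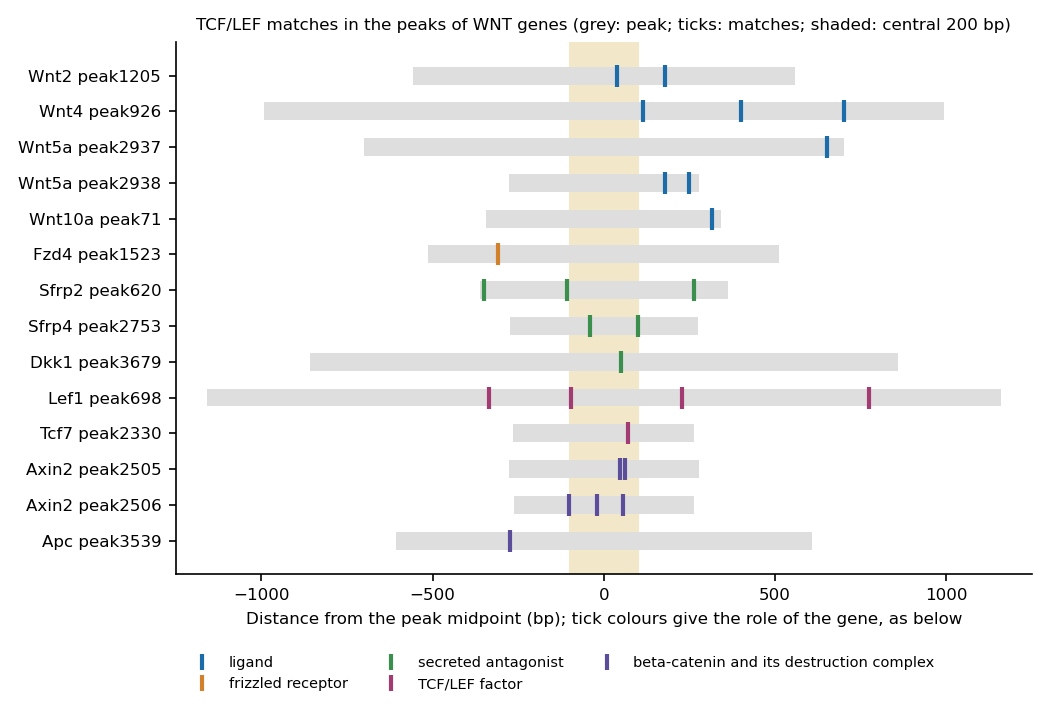
Positions of the 27 TCF/LEF matches (ticks, coloured by role) along the 14 CHD7 peaks of WNT genes that hold any (grey bars, drawn to scale), as the distance in bp from the peak midpoint, with the central 200 bp shaded. *Lef1* has the widest peak and 4 matches, and both *Axin2* peaks have 2 matches in the shaded window.

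The GATA motif (AGATAA), the recognition sequence of the GATA factors of heart and blood, was found in 8 of the 33 peaks (24.2%, interval 12.8 to 41.0), against 11.8% of all peaks. The lower limit of that interval is close to the 11.8%. Other windows and the stretches 2 kb to either side were counted for TCF/LEF alone, not for GATA. The peaks with the GATA motif were 2 each at *Wnt5a* and *Tcf7l2* and 1 each at *Fzd4*, *Fzd10*, *Sfrp2* and *Apc*. None of the 33 windows held both the GATA and the TCF/LEF motif. The T-box motif (AGGTGT) was found in 1 peak (3.03%, interval 0.537 to 15.3), at *Wnt2*, against 11.3%, which lies inside the interval. The other 5 motifs were SP/KLF (GGGCGG), NKX2 (TNAAGTG), E-box (CAGCTG), SOX (ACAATG) and caudal (CATAAA). They were found in 3 to 5 of the 33 peaks, and the share among all peaks lay inside the interval for each of them. Peaks of WNT genes are also counted in the whole list, and with 33 peaks the intervals are wide.

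**Figure D5:**
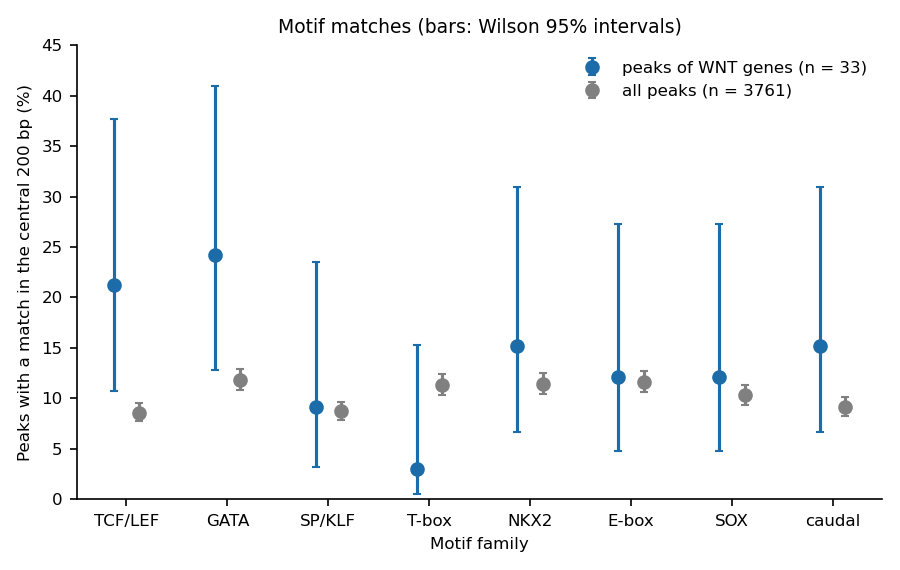
Share of peaks (%) with at least 1 match to each of 8 motif families in the central 200 bp, for the 33 peaks of WNT genes (blue) and all 3761 peaks (grey), with Wilson 95% intervals as bars. The interval for the peaks of WNT genes lies above the share among all peaks for TCF/LEF (10.7 to 37.8 against 8.56%) and GATA (12.8 to 41.0 against 11.8%). For the other families it includes that share. The intervals count each peak as separate, although the 33 peaks come from 21 genes, and no test was made.

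Other genes of the pathway were counted in the same way from a list of 75 that does not overlap the 48. Of these, 36 had a peak (48%, interval 37.1 to 59.1), against 20.8 given by genes of like domain length, a ratio of 1.73, and against 22.7% of all genes. R-spondins with their receptors and ligases, which raise the level of frizzled receptors at the surface or lower it, had a peak at 5 of 9 genes, against 2.94 by domain length. Intracellular transducers had one at 9 of 18 genes against 4.85, and nuclear cofactors of β-catenin at 5 of 10 against 2.45. Genes of planar cell polarity had one at 5 of 10 against 3.13, and known targets of the pathway in mesoderm at 6 of 12 against 3.39. Other secreted or membrane modulators had one at 4 of 8 against 1.69, and genes of ligand processing and release at 1 of 3 against 0.642. Only the list of other receptors fell below the number given by domain length, with 1 gene against 1.72. At least 2 peaks were found at 12 of the 75 genes (16%), against 5.88% of all genes, without allowance for domain length. The 75 genes were counted under the main rule alone, and other rules of assignment were not tried on them.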

How the data were processed

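CUT&RUN was performed on CP cells at day 5, with 3 biological replicates each of anti-CHD7, IgG and input. Per the study's methods and the processing notes of the submitters, reads were trimmed with fastp (0.20.1), aligned to mm10 with BWA (0.7.17.4), deduplicated by unique molecular identifiers with JE-Suite, and peaks were called in each sample with MACS2 (2.1.2) against IgG. Peaks that overlapped in at least 2 replicates were kept. The list the authors deposited holds positions in bp, with no score, signal or count. How strict the calling was, and how overlapping peaks became 1, is not given in the sources used here.

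Starts were read as counted from 0 and are given here from 1. Genes and TSSs were from GENCODE M21, with 1 transcript per gene, taken protein-coding first, then by APPRIS level, then by spliced length. Distances are from the peak midpoint. Domains followed the basal plus extension rule of GREAT, without its curated domains. Beside each count stands the share over all genes. For domain length, the share with a peak among the 500 other genes nearest in length was summed over the genes. Motifs were matched as exact letters in the central 200 bp of the GRCm38.p6 sequence.

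The 48 genes, the 75 other pathway genes and the motifs were chosen with earlier results of these data known, so no test was made on them. Positions are given for genes with a peak within 5 kb of the TSS, the 5 with the most peaks, *Wnt4*, those with a TCF/LEF match and, beyond the rule and chosen after their values were seen, others with a peak. Of genes without a peak, the 3 with the longest domains were named with the nearest peak, and *Wnt11*, *Lrp5*, *Lrp6*, *Ctnnb1* and those with a peak just outside the domain were added after their values were seen. Sequences were limited to 10 windows, without UTRs. All 75 other genes matched the annotation, 1 of them under an older symbol. Alternatives were other assignment rules, domain limits, TSSs, peak sets, numbers of genes of like length and motif windows. The scripts were tested on simulated data. Analyses used Python 3.11.15, numpy 2.4.6, pandas 2.3.3, scipy 1.17.1, pysam 0.24.0, matplotlib 3.10.9 and samtools 1.23.1.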

Additional observations from a re-analysis of the deposited data

How the results depend on the processing

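The number of WNT genes with a peak (21), of pairs of gene and peak (33) and the ratio to genes of like domain length (1.35) changed most with the rule that assigns peaks. With each peak given to the single nearest gene there were 9 genes and 14 pairs at a ratio of 0.9195. With the basal domain alone there were 3 genes and 3 pairs. The ratio of 1.98 there is to the share of all genes (3.16%), not to genes of like domain length. With the extension limited to 100 kb there were 12 genes and 14 pairs, at a ratio of 1.14 to genes of like length. These rules hold fewer pairs by construction. With only the peaks wider than the median, which are fewer by construction, there were 17 pairs. Over 10 alternatives the ratio was above 1 in 9. These 10 include the basal domain alone and a window of 100 kb without domains, whose ratios are to the share of all genes. Others changed only the number of genes of like length, and merging nearby peaks left the ratio at 1.35. The tally is therefore not a set of separate checks on the comparison with genes of like length. A window of 100 kb around the TSS without domains, an alternative chosen after seeing the data, gave 22 genes and 27 pairs. Its ratio of 1.25 is to the share of all genes (36.8%), not to genes of like domain length. The share of peaks with a TCF/LEF match (21.2%) was 42.4% over whole peaks, which are longer than the window, and 9.09% for CTTTGAT alone, against 29.9% and 3.48% of all peaks. With the peaks wider than the median alone it was 17.6%, against 8.52%. Of 32 values under alternatives, 21 stayed within 1.5 times the count or inside the interval of the ratio or share, and 11 did not.

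No paired analysis was possible because the deposited list joins the 3 anti-CHD7 replicates, and for the same reason no replicate could be left out. The depth of the libraries is unknown, so a gene without a peak is a gene at which none was listed, and the height of peaks could not be compared. Domains assign by position only, and 21 of the 33 pairs have another gene nearer. With 48 genes and 33 peaks, the intervals are wide.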
